A study of Mus musculus with 8 samples.

Results

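*Lcn2*, *Lrg1*, *Hp*, *Orm1*, *Orm2*, *Itih4*, *Cp*, *Steap4*, *Slpi*, and *Ptx3* encode proteins of the acute-phase response and of local inflammation. They were selected by gene symbol, with earlier results of these data known. They are 10 of the 48709 genes for which the authors deposited an RPKM (read density, scaled to exon length and to library size) in each library. RNA-Seq was performed on the pancreas of male mice at 8 weeks of age, with 2 libraries in each of 4 groups. WT mice and cKO mice (*Pfkfb3* fl/fl; *Pdx1*-Cre) received normal saline, or palmitoleic acid (POA) and ethanol to induce FAEE-SAP, a severe acute pancreatitis driven by fatty acid ethyl esters. All tissue was taken 24 h later. In cKO mice, Cre under the *Pdx1* promoter deletes floxed *Pfkfb3*, which encodes a regulator of glycolysis, in cells of the pancreatic lineage and not in infiltrating blood cells. WT mice were purchased, and the study's methods describe neither littermates nor a group with Cre alone. The design text calls the 2 libraries of a group biological replicates, no source states whether animals were pooled, and p-values measure only the spread between these libraries.

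The acute-phase response changes the proteins that circulate in blood after tissue injury. It is best known in the liver, where IL-6 acts through STAT3, and IL-1 and TNF act through NF-kB and C/EBP factors, to turn on these genes. Epithelial cells, fibroblasts, adipocytes, macrophages, and neutrophils make several of the same proteins at the site of injury, where they bind iron and heme, restrain neutrophil proteases, and mark microbes and debris.

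RPKM was divided by a factor for each library (median of ratios), since a few digestive enzyme genes take most of the reads in pancreas. Levels below are scaled RPKM with all 8 libraries scaled together, which permits comparison between genes because they are per length. Libraries held 22.9 to 37.8 M reads, worked out from the low values, so that for 2 kb of exons a single read is worth 0.0132 to 0.0218 RPKM. Fold changes were taken from limma as differences of log2(scaled RPKM + 0.1), fitted to the 4 libraries of each comparison, and a gene passed the test at a Benjamini-Hochberg adjusted p under 0.05 where it also changed 2-fold or more. The smallest two-sided p of an exact permutation test is 0.33 with 2 libraries a group. In whole tissue, fewer cells of a type and less RNA per cell cannot be told apart. The pancreas label was met by the acinar markers, whose 14 genes summed to 239962 to 337253 scaled RPKM with saline, to 75944 and 78790 in WT mice with FAEE-SAP, and to 195554 and 221107 in cKO mice with FAEE-SAP. *Pfkfb3* itself was between 0.880 and 3.21 in the 8 libraries, with overlap of the genotypes under each treatment, but a value for the whole gene cannot show the loss of its floxed exons, so it does not check the genotype labels.

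The promoters of 8 members were found in the RefSeq promoter table (GRCm38.p6), and *Hp* and *Orm1* had no entry. The 250 bases before each start were searched on both strands for TTNNGCAA (C/EBP), TTCNNNGAA (STAT), and the NF-kB consensus, and no 2 matches overlapped. The C/EBP letters were found before 6 of the 8 members, in 6 of their 9 windows (*Cp* has 2 starts, and the other window held no match), and in 9.56% of 32851 promoters of the same length. The matches of *Lcn2* and *Cp* lie in exons annotated in GENCODE vM21, with all 8 of their bases. The matches of these 6 genes are shown 5′ to 3′ with the matched letters in capitals, since they are the feature that most members share.
*Lcn2* (chr2:32387938-32387965, minus strand): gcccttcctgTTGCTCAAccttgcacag
*Slpi* (chr2:164356731-164356757, minus strand): gaatttgtaTTGAGCAAtaggttagag
*Cp* (chr3:19957169-19957196, plus strand): ttagttactcTTTTGCAAcattaaattg
*Ptx3* (chr3:66219820-66219847, plus strand): tggtttaacaTTGTGCAAcctcttcagc
*Orm2* (chr4:63362319-63362346, plus strand): agagaacattTTGCGCAAgacatttccc
*Steap4* (chr5:7960375-7960402, plus strand): acagctcctcTTGCGAAAtcaagcgggc
The STAT letters were found before *Steap4* and *Itih4* and in 7.02% of promoters, and the NF-kB consensus before *Steap4* alone among the members and in 7.25% of promoters.
*Steap4* STAT (chr5:7960346-7960374, plus strand): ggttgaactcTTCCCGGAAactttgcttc
*Steap4* NF-kB, the nearer of 2 matches (chr5:7960236-7960265, plus strand): caaaggttccGGAAAACCCCttttataccc
*Itih4* STAT (chr14:30886415-30886443, plus strand): aaacctgcatTTCCGAGAActtgcaccag
None of the 3 motifs was found in the window of *Lrg1*. A match is a run of letters and not a measured binding site, and these libraries hold no binding data.

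FAEE-SAP raised most of the 10 genes in WT pancreas. Of the 9 members tested there, *Lcn2*, *Lrg1*, *Ptx3*, *Hp*, *Steap4*, and *Cp* rose past the threshold, and 0 fell. Of the 7 that met the RPKM minimum in both groups, that is in at least 1 library of each, 5 rose. The background was 3.08% of all 10894 genes tested (6.93% in either direction), which includes genes that met the minimum through 1 group alone. As the members were chosen with earlier results known, an excess over the background is a description and not a test. *Orm1* and *Ptx3* reached the RPKM minimum of 0.5 in at least 2 libraries only through the FAEE-SAP libraries and so had to differ, and *Orm2* stayed under it. Among the 7 members that met the minimum in both groups, both WT FAEE-SAP libraries were above both WT saline libraries for 6, compared with 29.7% of genes tested, and below them for *Itih4*, compared with 29.1%. In cKO pancreas, *Lrg1* was the 1 of 7 tested members that rose past the threshold, where 0.0531% of 9423 genes were called and all 5 of these were higher. Both cKO FAEE-SAP libraries were above both cKO saline libraries for 4 of the 7, *Lcn2*, *Lrg1*, *Itih4*, and *Cp*, compared with 19.6% of genes tested.

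Between the genotypes with FAEE-SAP, *Ptx3* was lower in cKO past the threshold, and 0 of the 7 members that met the minimum in both groups were called, where 0.409% of 11008 genes were called lower and 0.863% higher (1.27% in all). Without scaling, 73 genes were called higher and 4354 lower here, and 7184 higher and 86 lower in the WT response. Both cKO libraries were nevertheless below both WT libraries for 6 of the 7 members that met the minimum in both groups, an order found for 25.3% of genes tested, and above them for *Itih4*, an order found for 26.5%. *Ptx3* and *Orm1* met the RPKM minimum here only through the WT FAEE-SAP libraries, where they are high, and so had to differ. With the values as deposited, 8 of the 9 tested members were called lower in cKO, all but *Itih4*. With saline, 0 of 7 tested members and 0 of 8715 genes were called by limma (background 0%). An unadjusted p under 0.05 was found for 187 genes, among them *Lrg1*, *Itih4*, and *Slpi*. These 187 are a smaller share of the genes tested than the 0.05 that would fall under it if no gene differed. The difference of the responses (interaction, all 8 libraries) was called for 0 of 9 members and 0.0719% of 11133 genes (0.0449% higher and 0.0269% lower), with 1398 genes at an unadjusted p under 0.05. These comparisons share libraries and are not independent of each other.

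**Figure D1:**
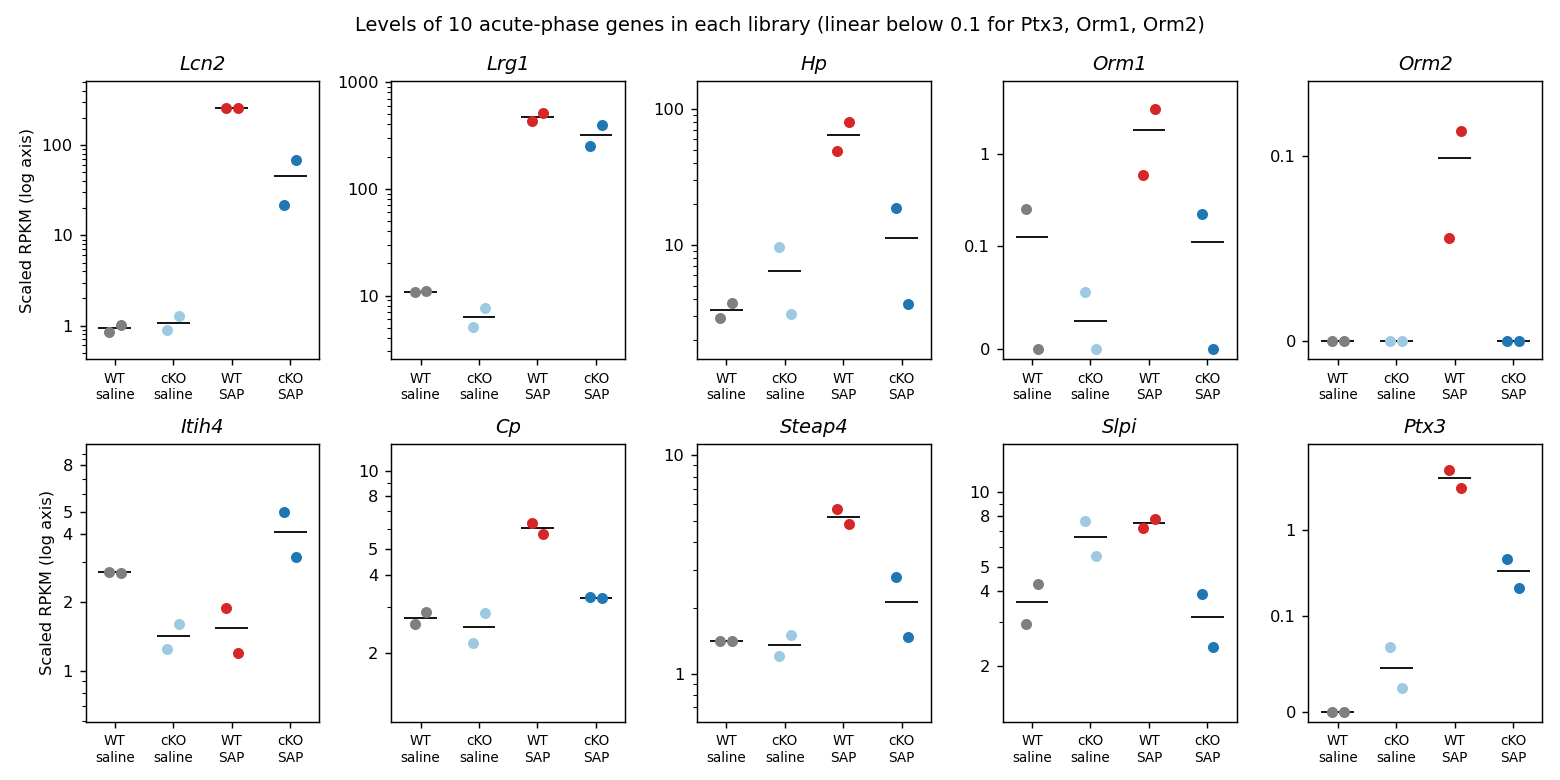
Scaled RPKM (log axes, linear below 0.1 for *Ptx3*, *Orm1*, and *Orm2*) of the 10 genes in the 8 libraries, with points for libraries, short lines for group means, and SAP for FAEE-SAP. *Lcn2* was 258 and 259 for WT FAEE-SAP and 21.7 and 68.7 in cKO, whereas *Lrg1* was at least 249.9 in all 4.

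*Lcn2* encodes lipocalin 2, which binds bacterial siderophores and so withholds iron, and which neutrophils store and injured epithelia secrete. Its scaled RPKM was 0.849 and 1.01 for WT saline, 0.894 and 1.26 for cKO saline, 258 and 259 for WT FAEE-SAP, and 21.7 and 68.7 for cKO FAEE-SAP. The saline groups overlapped, both FAEE-SAP groups stood far above them, and the WT libraries were nearly equal while the cKO libraries were more than 3-fold apart. By deposited RPKM *Lcn2* ranked 52 and 56 among all genes in WT FAEE-SAP, 365 and 168 in cKO FAEE-SAP, and between 6294 and 7690 with saline. The WT rise was 255-fold (log2 fold change 8.00, SE 0.17, adjusted p = 0.000120 from limma), the largest fitted increase of the 10894 genes, and it passed under every alternative run. The cKO rise reached 5.06 on the log2 scale (SE 0.56, adjusted p = 0.161), which ranked 5 of 9423 genes and missed the threshold. It passed with all 8 libraries in 1 model (adjusted p = 0.0130) and without cKO FAEE-SAP replicate 1 (log2 fold change 5.88, adjusted p = 0.0129). With FAEE-SAP, cKO differed from WT by -2.75 on the log2 scale (SE 0.52, adjusted p = 0.0819). This difference also missed the threshold, and passed when either cKO FAEE-SAP library was left out (-1.90 without replicate 1 and -3.60 without replicate 2, adjusted p = 0.0298 and 0.0134) with all 8 libraries in 1 model (adjusted p = 0.0354), or with the values as deposited (adjusted p = 0.00977). It ranged from an adjusted p of 0.00977 to 0.443 over all alternatives, and the interaction was -2.92 (SE 0.67, adjusted p = 0.202). With saline cKO differed from WT by 0.15 on the log2 scale (SE 0.24), and -0.10 with the values as deposited.

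The group means of neutrophil markers had the same order as those of *Lcn2* with FAEE-SAP, but the 2 cKO libraries of each treatment had the opposite order. The 16 marker genes summed to 2.03 and 3.21 scaled RPKM for WT saline, 4.51 and 2.24 for cKO saline, 64.1 and 61.6 for WT FAEE-SAP, and 21.9 and 15.4 for cKO FAEE-SAP. In WT mice the 10 markers tested all rose past the threshold, where 3.08% of all genes did. Of these, 9 were tested only through the FAEE-SAP libraries and so had to differ, and *S100a9* was the 1 that met the minimum in both groups. In cKO against WT with FAEE-SAP all 10 had negative log2 fold changes, compared with 50.7% of all genes. Of these, *S100a8* (-2.32) and *Retnlg* (-2.26) passed the test, where 0.409% of all genes were called lower. *Mmp8* and *Stfa2l1* met the minimum there only through the WT libraries, which fixed their sign. The granule genes *Elane*, *Mpo*, *Camp*, and *Ltf* were between 0 and 0.293 in every library, and *Ly6g* was listed at 0 in all 4 saline libraries. *Lcn2* per summed marker level was 4.04 and 4.20 for WT FAEE-SAP and 0.992 and 4.46 for cKO FAEE-SAP, so the genotypes overlapped on this ratio, and it was 0.198 to 0.563 with saline. The part of neutrophils in the level of *Lcn2* was not tested. Macrophage markers (11 genes) summed to 136 and 102 for WT FAEE-SAP and 156 and 125 for cKO FAEE-SAP, which overlapped, although 9 of 11 tested had positive log2 fold changes in cKO against WT (median 0.65), none past the threshold. Duct markers (10 genes) summed to 143 to 155 with saline, 333 and 377 for WT FAEE-SAP, and 197 and 255 for cKO FAEE-SAP. Their sum had the order of *Lcn2*, but its genes went both ways in cKO against WT with FAEE-SAP, 4 higher and 5 lower of 9 tested and none past the threshold, from *Muc1* at 0.83 to *Epcam* at -1.25.

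**Figure D2:**
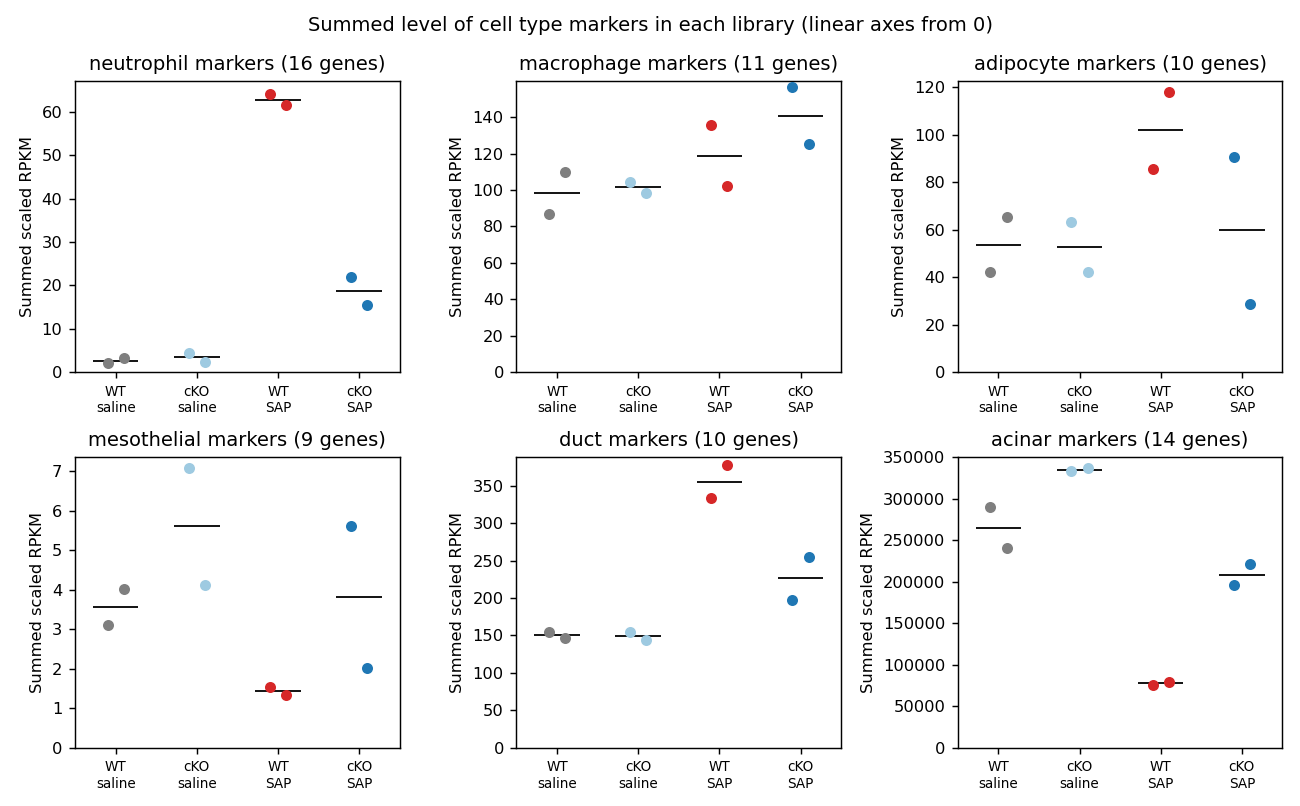
Summed scaled RPKM (linear axes from 0) of 6 lists of cell type markers in the 8 libraries, with points for libraries, lines for group means, and SAP for FAEE-SAP. Neutrophil markers summed to 64.1 and 61.6 for WT FAEE-SAP and to 21.9 and 15.4 for cKO FAEE-SAP, and acinar markers had the reverse order.

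*Hp*, *Cp*, and *Steap4* also act on heme, iron, and copper. *Hp* encodes haptoglobin, which captures free hemoglobin and is made by liver, adipocytes, and myeloid cells. Its scaled RPKM was 2.89 and 3.74 for WT saline, 9.69 and 3.10 for cKO saline, 49.4 and 80.5 for WT FAEE-SAP, and 18.8 and 3.65 for cKO FAEE-SAP. Both WT FAEE-SAP libraries were above all others, and the cKO groups overlapped between treatments. In WT, *Hp* rose 18.7-fold (log2 fold change 4.22, SE 0.28, adjusted p = 0.00279 from limma), and in cKO its log2 fold change was 0.62 (SE 0.95, adjusted p = 0.847). The latter was -0.18 without cKO saline replicate 2 and -0.54 without cKO FAEE-SAP replicate 1. Between genotypes with FAEE-SAP the log2 fold change was -2.92 (SE 0.73, adjusted p = 0.130), and -4.07 without cKO FAEE-SAP replicate 1 (adjusted p = 0.0288).

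*Hp* was higher in replicate 1 than in replicate 2 of both cKO groups, and so were several marker lists. With FAEE-SAP these included the neutrophil (21.9 and 15.4), lymphoid (41.2 and 19.6), and mesothelial lists (5.60 and 2.01), and with saline the neutrophil (4.51 and 2.24) and mesothelial lists (7.08 and 4.12). In cKO FAEE-SAP replicates 1 and 2, the 10 adipocyte markers summed to 90.8 and 28.7, with the adipocyte lipid carrier *Fabp4* at 50.7 and 17.1 and *Plin1* at 0.998 and 0.0214. This list summed to 85.6 and 118 in WT FAEE-SAP. In cKO saline replicate 1, where *Hp* was 9.69, the 14 liver markers summed to 45.9, against 12.7 to 17.0 in the other saline libraries, with *Apoa1* at 10.5 and *Fabp1* at 12.7 there and at most 0.157 in any other library. *Alb*, the defining liver transcript, was 2.22 in that library and at most 0.806 elsewhere, and the liver list summed to 4.63 and 4.02 in WT FAEE-SAP, where *Hp* was highest. Liver markers in the remaining libraries were mostly *Ttr* and *Cyp2e1*, and *Ttr* is also made in islets. Without that library the saline difference of *Hp* changed from 0.69 to -0.11 on the log2 scale. The part of these cells and of *Apoa1*-rich tissue in these values was not tested.

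*Cp* encodes ceruloplasmin, a copper-carrying ferroxidase. It was 2.60 and 2.88 for WT saline, 2.19 and 2.86 for cKO saline, 6.33 and 5.74 for WT FAEE-SAP, and 3.30 and 3.25 for cKO FAEE-SAP. WT FAEE-SAP stood above the rest. Its WT change of 1.11 on the log2 scale (SE 0.19, adjusted p = 0.0306, limma) passed the test. The call was lost when any 1 library was left out (log2 fold change 1.05 to 1.22), with no filter, with a pseudocount of 1, or with replicate number as a block. Its log2 fold change was 0.40 (SE 0.20, adjusted p = 0.580) in cKO, and -0.88 (SE 0.20, adjusted p = 0.113) in cKO against WT with FAEE-SAP. The exons of *Cp* overlap those of *Hps3* on the opposite strand by 108 bases, and whether counting used strand is not stated.

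*Steap4* encodes a membrane metalloreductase for iron and copper that inflammatory cytokines induce. Scaled RPKM was 1.41 in both WT saline libraries, 1.20 and 1.50 for cKO saline, 5.66 and 4.83 for WT FAEE-SAP, and 2.77 and 1.47 for cKO FAEE-SAP. The lower cKO FAEE-SAP library lay within the range of cKO saline. In WT *Steap4* rose 3.55-fold (log2 fold change 1.83, SE 0.20, adjusted p = 0.00961 from limma), and the call was lost without WT FAEE-SAP replicate 2 (adjusted p = 0.0517). In cKO the log2 fold change was 0.58 (SE 0.35, adjusted p = 0.625), and between genotypes with FAEE-SAP it was -1.35 (SE 0.33, adjusted p = 0.125). The promoter window of *Steap4* was the one that held all 3 motifs.

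*Lrg1* encodes leucine-rich alpha-2-glycoprotein 1, a secreted protein that binds endoglin and modifies TGF-beta signaling in vessels. Its scaled RPKM was 10.7 and 11.0 for WT saline, 5.08 and 7.62 for cKO saline, 430 and 510 for WT FAEE-SAP, and 249.9 and 394 for cKO FAEE-SAP. The 4 groups did not overlap, and *Lrg1* ranked among the 71 highest genes of every FAEE-SAP library by deposited RPKM. It was the member with the highest level in both WT saline libraries. In WT it rose 42.6-fold (log2 fold change 5.41, SE 0.16, adjusted p = 0.000380 from limma), which ranked 11 of 10894 genes, and in cKO 50.4-fold (5.66, SE 0.31, adjusted p = 0.0386), which ranked 4 of 9423.

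The call for *Lrg1* in cKO was lost without cKO saline replicate 1 or 2 or without cKO FAEE-SAP replicate 2 (log2 fold changes 5.38 to 5.95). It was also lost with a block of crossed replicate numbers (limma adjusted p = 0.174) and with no filter (adjusted p = 0.125), where every gene lost its call. The difference between the responses was 0.22 (SE 0.38, adjusted p = 0.850), and it changed sign under quantile normalization (-0.16) and without scaling (-0.46). With FAEE-SAP *Lrg1* differed by -0.59 on the log2 scale between cKO and WT (SE 0.26, adjusted p = 0.285), and by -1.55 with the values as deposited, where it was called (adjusted p = 0.00978 from limma). With saline it was -0.82 (SE 0.24, unadjusted p = 0.0203, adjusted p = 0.999). So *Lrg1* was 1 of 2 members, with *Itih4*, for which both cKO saline libraries were below both WT saline libraries, an order found for 12% of genes tested.

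**Figure D3:**
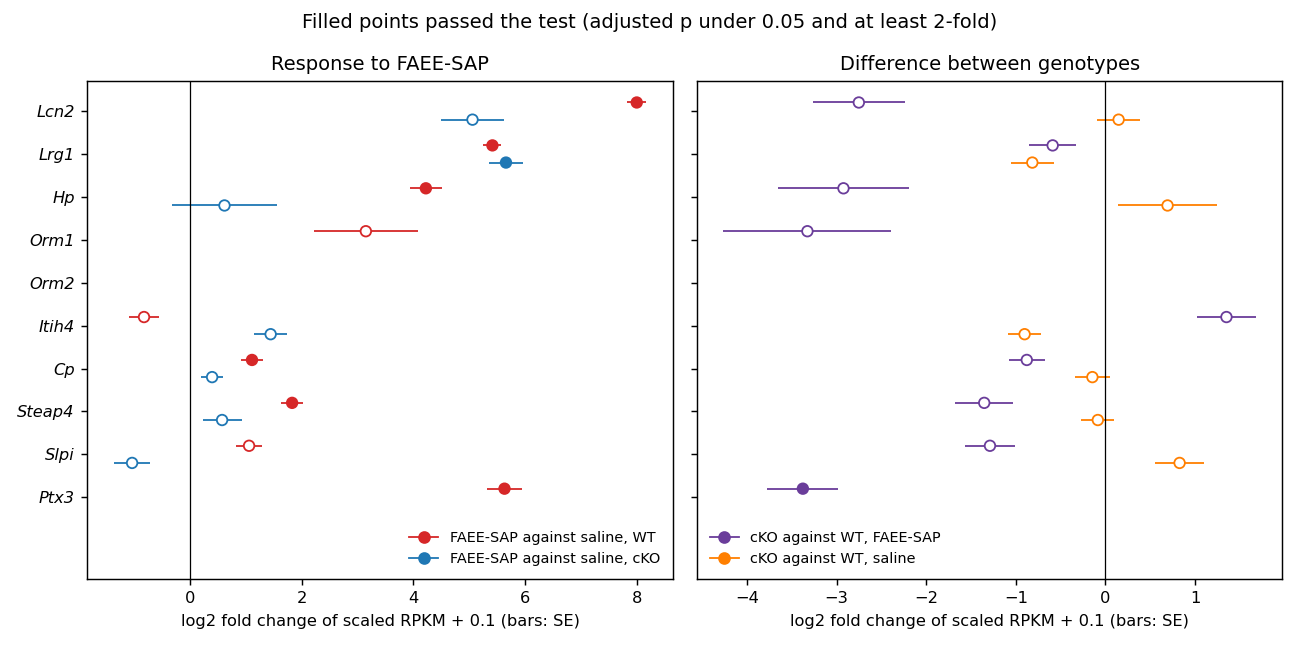
log2 fold changes of scaled RPKM + 0.1 with SE bars for the response to FAEE-SAP in each genotype (left) and for cKO against WT under each treatment (right), filled where the test was passed. *Lcn2* had 8.00 in WT and 5.06 in cKO, *Lrg1* 5.41 and 5.66, and *Itih4* and *Slpi* had opposite signs in the 2 genotypes, although as deposited *Itih4* was 0.45 in WT.

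*Orm1* and *Orm2* encode orosomucoids, lipid- and drug-binding plasma glycoproteins. *Orm1* had 4 and 0 reads for WT saline, 1 and 0 for cKO saline, 21 and 151 for WT FAEE-SAP, and 5 and 0 for cKO FAEE-SAP, a scaled RPKM of 0.584 and 3.07 in WT FAEE-SAP and at most 0.250 elsewhere. Almost all reads were in the WT FAEE-SAP libraries, which differed from each other more than 5-fold. Its log2 fold changes depend on the pseudocount, and neither 3.15 in WT (SE 0.93, adjusted p = 0.0963 from limma) nor -3.33 between genotypes with FAEE-SAP (SE 0.94, adjusted p = 0.158) passed the test. *Orm2* had 2 and 7 reads in WT FAEE-SAP and 0 in every other library, where 3 reads, the most that a count of 0 allows, equal 0.128 to 0.187 scaled RPKM, so no fold is given. The transcripts of *Orm1* and *Orm2* are identical at 91.0% of 775 aligned bases, and reads could be shared between them and with *Orm3*.

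*Slpi* and *Itih4* had responses of opposite sign in the 2 genotypes, none past the threshold. *Slpi* encodes secretory leukocyte protease inhibitor, an epithelial and myeloid inhibitor of neutrophil elastase. Its scaled RPKM was 2.95 and 4.26 for WT saline, 7.66 and 5.56 for cKO saline, 7.19 and 7.84 for WT FAEE-SAP, and 3.90 and 2.39 for cKO FAEE-SAP. It was higher with FAEE-SAP in WT and lower in cKO, without overlap in either genotype, and an order with cKO FAEE-SAP below cKO saline was found for 23.6% of genes tested. As deposited, the cKO groups overlapped, with RPKM of 4.76 and 3.70 for saline and 4.08 and 2.33 for FAEE-SAP. The log2 fold change was 1.06 in WT (SE 0.23, adjusted p = 0.0523), -1.04 in cKO (SE 0.32, adjusted p = 0.462), and -1.29 in cKO against WT with FAEE-SAP (SE 0.28, adjusted p = 0.104). The interaction was -2.13 (SE 0.42, unadjusted p = 0.00121, adjusted p = 0.151 from limma), so none of these passed. In WT the call was gained with an RPKM minimum of 2 (adjusted p = 0.0418), where fewer genes were tested, and with the values as deposited.

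With saline *Slpi* had a log2 fold change of 0.83 in cKO against WT (SE 0.28, unadjusted p = 0.0313, adjusted p = 0.999), and both cKO saline libraries were above both WT saline libraries for *Slpi* alone of the 7 tested members, an order found for 16.3% of genes tested. The higher of these *Slpi* values, 7.66, was in the library with *Apoa1* at 10.5. The 9 mesothelial markers, from the lining of the peritoneum where *Slpi* is also made, summed to 3.11 and 4.01 for WT saline, 7.08 and 4.12 for cKO saline, 1.52 and 1.33 for WT FAEE-SAP, and 5.60 and 2.01 for cKO FAEE-SAP. They were lowest in WT FAEE-SAP, where *Slpi* was high. *Krt5* was at or near 0 throughout, and the part of these cells in *Slpi* was not tested.

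*Itih4* encodes a heavy chain of the inter-alpha-trypsin inhibitor family, matrix-stabilizing plasma proteins. Its scaled RPKM was 2.73 and 2.70 for WT saline, 1.25 and 1.60 for cKO saline, 1.90 and 1.19 for WT FAEE-SAP, and 4.98 and 3.18 for cKO FAEE-SAP. It was lower with FAEE-SAP in WT and higher in cKO, and cKO FAEE-SAP was the highest of the 4 groups. As deposited, the FAEE-SAP groups overlapped, with RPKM of 3.84 and 2.31 in WT and 5.21 and 3.10 in cKO, and the genotypes differed by 0.42 on the log2 scale. The log2 fold change was -0.82 in WT (SE 0.27, adjusted p = 0.121; 0.45 with the values as deposited), 1.44 in cKO (SE 0.29, adjusted p = 0.344), and 1.35 in cKO against WT with FAEE-SAP (SE 0.33, adjusted p = 0.126). The interaction was 2.24 (SE 0.41, unadjusted p = 0.000858, adjusted p = 0.151 from limma). With saline it was -0.90 in cKO against WT (SE 0.18, unadjusted p = 0.00467, adjusted p = 0.999). *Itih4* passed the adjusted threshold in none of the 5 comparisons. With replicate number as a block it was called higher in cKO against WT with FAEE-SAP.

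*Ptx3* encodes pentraxin 3, a long pentraxin that opsonizes microbes and is made locally by myeloid, endothelial, and stromal cells rather than by the liver. It spans chr3:66219910-66225805 on the plus strand of GRCm38 (GENCODE vM21). Its scaled RPKM was 0 in both WT saline libraries, 0.0674 and 0.0252 for cKO saline, 4.97 and 3.04 for WT FAEE-SAP, and 0.456 and 0.210 for cKO FAEE-SAP. These values equal 0 reads for WT saline, 4.2 and 1.4 for cKO saline, 619 and 517 for WT FAEE-SAP, and 35.3 and 17.0 for cKO FAEE-SAP. The reads rest on the GENCODE exonic length of 2682 bases. Several are not whole, so the deposited RPKM may rest on another length, and these reads are approximate. *Ptx3* was thus near its floor with saline, and WT FAEE-SAP was far above cKO FAEE-SAP. Set against 3 reads at that length in each WT saline library, the WT level with FAEE-SAP was about 79.0-fold higher. A shorter length would make this value smaller. The fitted log2 fold change was 5.63 (SE 0.32, adjusted p = 0.00243 from limma), but *Ptx3* met the RPKM minimum there only through the FAEE-SAP libraries and so had to differ.

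In cKO against WT with FAEE-SAP, *Ptx3* differed by -3.38 on the log2 scale (SE 0.40, limma adjusted p = 0.0272), a 10.4-fold lower level. *Ptx3* met the RPKM minimum in this comparison only through the WT FAEE-SAP libraries and so had to differ. That its direction was the same in every alternative fit therefore adds no support. The call was lost with no filter (adjusted p = 0.127), and without either WT FAEE-SAP library *Ptx3* no longer reached the RPKM minimum and was not tested. The interaction was -3.80 (SE 0.55, adjusted p = 0.0765) and passed with quantile normalization (adjusted p = 0.0349), a pseudocount of 1 (0.0491), and the values as deposited (0.0429). *Ptx3* was under the minimum in the cKO libraries. Its log2 fold change there did not pass where it was tested, at 1.40 with no filter (SE 0.37, limma adjusted p = 0.648) and 1.52 with all 8 libraries in 1 model (SE 0.39, adjusted p = 0.273). Its promoter window is the only one shown whole, because *Ptx3* is the member called between genotypes, in a direction that the filter fixed. The window contains the C/EBP letters in capitals, which begin 57 bases before the RefSeq start. That start lies 23 bases before the start of the gene in GENCODE vM21, and no GENCODE transcript holds the first bases after it.
*Ptx3* promoter window (chr3:66219637-66219886, plus strand): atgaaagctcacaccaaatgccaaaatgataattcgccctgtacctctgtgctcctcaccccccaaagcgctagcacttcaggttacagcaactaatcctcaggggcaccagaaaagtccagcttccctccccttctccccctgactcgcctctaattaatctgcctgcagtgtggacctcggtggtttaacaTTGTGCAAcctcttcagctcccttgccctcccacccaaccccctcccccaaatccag

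Cytokine and signaling genes that drive or restrain the acute-phase response rose in part in WT pancreas with FAEE-SAP. Of 30 cytokine, receptor, kinase, and transcription factor genes, 25 were tested in WT and 9 rose past the threshold. Of the 20 that met the minimum in at least 1 library of each group, 6 rose, against the background of 3.08%. These 9 were led by *Il1rn*, the IL-1 receptor antagonist (log2 fold change 3.55), *Il1b* (3.52), *Socs3*, the feedback inhibitor of STAT3 signaling (3.26), *Bcl3*, an NF-kB cofactor (2.32), and *Rela*, an NF-kB subunit (1.85). In at least 2 of the 4 saline libraries 18 of the 30 reached the RPKM minimum, and *Bcl3* was not among these 18. *Il1rn*, *Il1a*, *Il1b*, *Tnf*, and *Osmr* were tested in WT only through the FAEE-SAP libraries, so that the 3 of them that were called had to differ. In cKO, 0 of 20 tested passed by limma, where 0.0531% of all genes did, so this count does not set the list apart, and the most abundant, *Lifr*, *Il22ra1*, and *Nfkbia*, had log2 fold changes of -0.25, -0.57, and 0.10. In cKO against WT with FAEE-SAP, 21 of 25 had negative log2 fold changes, compared with 50.7% of all genes. *Il1rn* was called, at -2.69 on the log2 scale (adjusted p = 0.0215, limma). Of the 22 that met the minimum in both groups 0 were called, where 0.409% of all genes were called lower. *Il1rn*, *Il1a*, and *Tnf* met the minimum in this comparison only through the WT FAEE-SAP libraries and so had to differ.

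Levels by library were as follows for the genes of this list with the clearest separation, named after their values were seen. *Il1rn* was 1.32 and 1.54 in WT FAEE-SAP, 0.189 and 0.138 in cKO FAEE-SAP, and at most 0.0684 with saline. *Socs3* was 12.5 and 8.69 in WT FAEE-SAP, 5.26 and 1.94 in cKO FAEE-SAP, and 0.837 to 1.92 with saline. *Rela* was 15.2 and 24.7 in WT FAEE-SAP and 4.62 to 6.72 in the 6 other libraries. Thus for all 3 the cKO FAEE-SAP libraries lay below WT FAEE-SAP, and for *Rela* they lay within the saline range. *Il6* was at most 0.248 in any library, and *Il22* was listed at 0 in all 8, so neither reached the minimum.

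**Figure D4:**
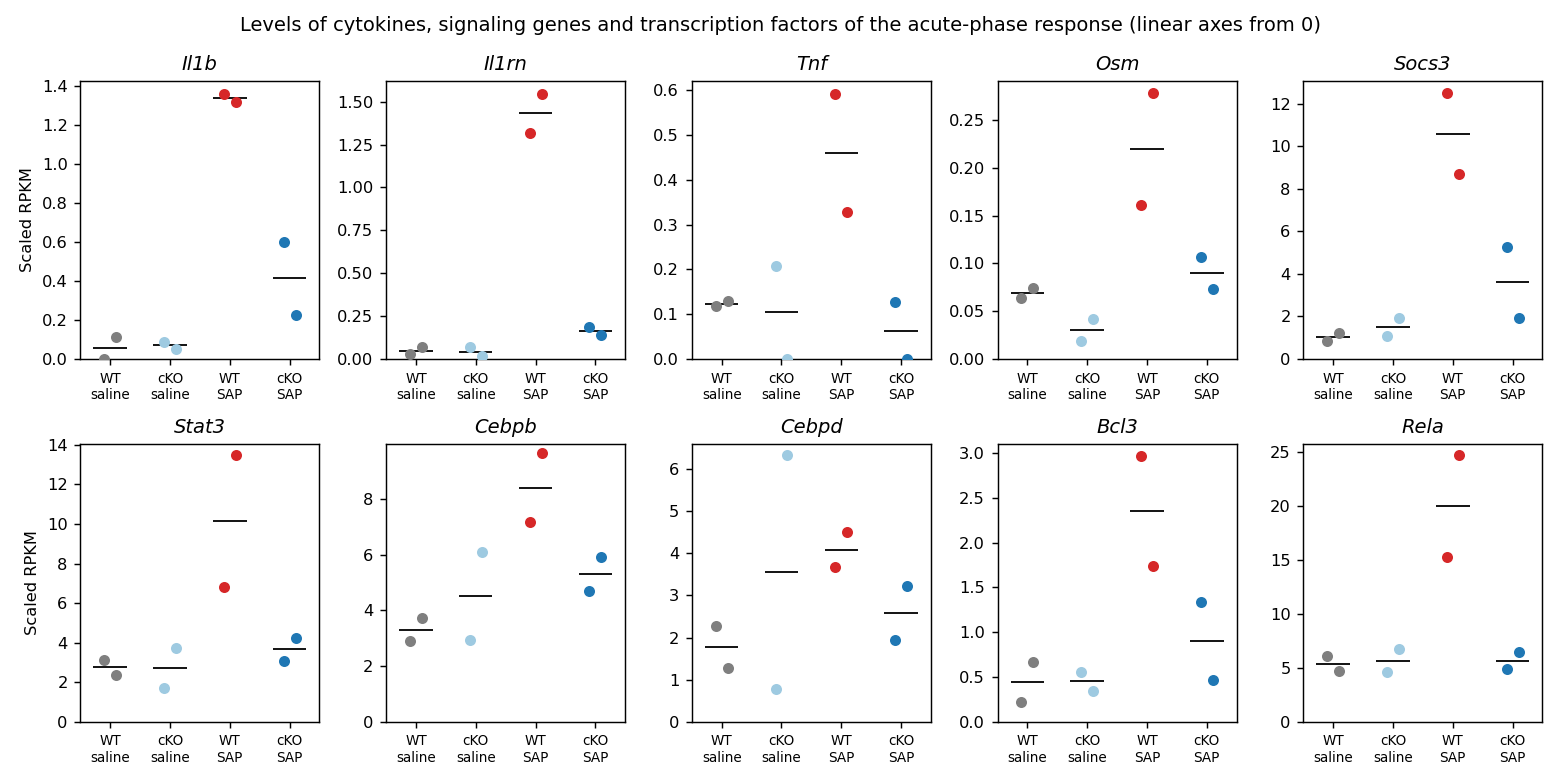
Scaled RPKM (linear axes from 0) of 10 cytokine, signaling, and transcription factor genes of the acute-phase response in the 8 libraries, with points for libraries, lines for group means, and SAP for FAEE-SAP. *Il1rn* was 1.32 and 1.54 for WT FAEE-SAP and 0.189 and 0.138 for cKO FAEE-SAP, and *Rela* was 15.2 and 24.7 against 4.84 and 6.42.

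Binding partners and relatives of the members went both ways in WT. Of 33 such genes, 17 were tested in WT, and 3 rose and 2 fell past the threshold, against backgrounds of 3.08% and 3.86%. *Mmp9*, 1 of the 3, met the minimum only through the FAEE-SAP libraries and so had to differ. The genes that rose were *Mmp9*, whose protein forms a complex with lipocalin 2 (log2 fold change 2.29), *Wfdc17*, a relative of *Slpi* (2.28), and *Hmox1*, the heme oxygenase that degrades heme taken up with haptoglobin and hemopexin (2.10). *Mmp9* is also on the neutrophil list. The genes that fell were *Itih5* (-1.55) and *Itih2* (-1.42), both relatives of *Itih4*. In cKO against WT with FAEE-SAP, 0 of 18 passed, where 1.27% of all genes did, so this count does not set the list apart. The most abundant, *Trf*, *Wfdc17*, and *Tgfbr2*, had log2 fold changes of -0.47, -0.70, and 0.17. The extremes of the list, named after their values were seen, were *Hamp*, the iron hormone hepcidin, at -2.84 (limma adjusted p = 0.0734, tested only through the WT libraries), and *Slc22a17*, a lipocalin 2 receptor, at 1.25 (adjusted p = 0.167). The response in cKO had 0 of 14 calls, where 0.0531% of all genes were called, so this count does not set the list apart either. Its log2 fold changes were -0.06, 0.60, and 0.66 for *Trf*, *Wfdc17*, and *Tgfbr2*. Of 30 other acute-phase genes, whose changes were known when the list was used, 6 of 13 that met the minimum in both groups rose in WT (3.08% of all genes), 2 of 13, *Reg3a* and *Reg3b*, rose in cKO (0.0531%), and 6 of 17 were lower in cKO against WT with FAEE-SAP (0.409%).

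The levels of the members did not rise and fall together in all cases. Over the 8 libraries, which fall into separate treatment groups and share their library scaling, the genes of the 11133 tested whose log2 levels were most like *Lcn2* were *Chil5* (Pearson r 0.993), *Eftud2* (0.987), *Cndp2* (0.983), *Rab4b* (0.981), and *Dbn1* (0.981). Those most like *Lrg1* were *Cxcl14*, *Slf1*, and *Nelfcd*, each at 0.981. Among the members, r with *Lcn2* was 0.968 for *Lrg1*, 0.921 for *Ptx3*, 0.894 for *Cp*, 0.848 for *Steap4*, 0.769 for *Hp*, and 0.653 for *Orm1*. It was 0.181 for *Slpi* and -0.01 for *Itih4*. These correlations describe the 8 libraries and were not tested.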

How the data were processed

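Pancreas RNA of 4 groups (WT or cKO, saline or FAEE-SAP, 2 libraries each, grouped by the labels) was sequenced from a directional library kit. Reads were filtered with fastp and mapped to GRCm38.p6 with CLC Genomics Workbench 12.0. The authors deposited RPKM for 48709 genes per library, and how these were counted is not given in the sources used here. No batch is named in the labels. The members and lists were chosen with earlier results of these data known.

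Library totals of 22.9 to 37.8 M reads were worked out from whole-read steps of the low values with GENCODE vM21 exonic lengths, which 46325 genes (95.1%) had. Of values under 20 reads, 84.1% to 85.6% were whole within 0.1 reads. Reads per gene are therefore approximate, and floors cover counting error only. RPKM is a share of the library, so libraries were scaled by the median of ratios over genes that passed the RPKM minimum and were above 0 in every library. Genes with a deposited RPKM of at least 0.5 in at least 2 libraries of a comparison were tested on log2(scaled RPKM + 0.1) with limma 3.58.1 (R 4.3.3, intensity trend), p-values adjusted by Benjamini-Hochberg across every gene in the fit, and called at an adjusted p under 0.05 and at least 2-fold. The interaction was fitted on all 8 libraries, and each other comparison on its own 4. The procedure was checked on data simulated from the levels of cKO against WT with FAEE-SAP. It called 8% of 2-fold, 54% of 4-fold, and 88% of 8-fold changes, with 6 false calls. A missed threshold is therefore weak evidence that a gene did not change. Python 3.11.15 was used for tables and figures (matplotlib 3.10.9).

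Named genes are the 10 members, up to 5 called genes of each list with the largest change, or the 3 most abundant where none was called, and the genes most like *Lcn2* (5) and *Lrg1* (3). Markers shown for their part in a library's values, and the cytokine and signaling genes given by library, were named after their values were seen. Alternatives were the values as deposited, a trimmed mean, quantile normalization, no filter, an RPKM minimum of 2, pseudocounts of 1 and 0.01, no trend, replicate number as a block, voom on recovered reads, all 8 libraries in 1 model, and each library left out. A block with crossed replicate numbers was added after the data were seen. Promoter windows are from RefSeq and transcript identity from GENCODE vM21.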

Additional observations from a re-analysis of the deposited data

Results flagged for a closer look

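*Itih4* and *Slpi* were singled out because both FAEE-SAP libraries lay on 1 side of both saline libraries in WT mice and on the opposite side in cKO mice. Of all genes tested, FAEE-SAP lay above saline without overlap for 29.7% in WT and 19.6% in cKO, and below it for 29.1% and 23.6%. The share of genes with opposite orders was not counted, so this pattern does not set the members apart. For *Itih4*, WT went from 2.73 and 2.70 to 1.90 and 1.19 scaled RPKM, and cKO from 1.25 and 1.60 to 4.98 and 3.18. The difference of the responses was 2.24 on the log2 scale (SE 0.41, adjusted p = 0.151, limma), and it did not pass. As deposited, the WT change of *Itih4* was 0.45, so the opposite direction depends on the scaling. For *Slpi*, WT went from 2.95 and 4.26 to 7.19 and 7.84, and cKO from 7.66 and 5.56 to 3.90 and 2.39. The difference of the responses was -2.13 (SE 0.42, adjusted p = 0.151 from limma), which did not pass either. The directions for *Slpi* were the same as deposited (2.36 in WT and -0.43 in cKO), but the cKO groups then overlapped.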

How the results depend on the processing

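Counts of members called depended on scaling and on single libraries. For cKO against WT with FAEE-SAP, where 1 member was called, the count was 8 with the values as deposited, 0 with no filter, 2 with all 8 libraries in 1 model, and 0 to 3 with 1 library left out (0 without either WT FAEE-SAP replicate, 3 without cKO replicate 1 and 2 without cKO replicate 2, where 1.29% and 1.01% of all genes were called). Without scaling, all genes shifted by a median log2 of -0.91 in this comparison, and 1.24 in WT, 0.57 in cKO, and -0.25 with saline. For the response in WT, where 6 were called, leaving out 1 library gave 3 to 5, where 1.03% to 4.56% of all genes were called, and 3 without WT FAEE-SAP replicate 2. For the response in cKO, where 1 was called, the count was 0 with no filter, 2 with all 8 libraries in 1 model, and 0 to 2 with 1 library left out (2 without cKO FAEE-SAP replicate 1, where 0.0714% of all genes were called, and 0 without any of the other 3). For the interaction, where 0 were called, the count was 5 with the values as deposited, where 7.11% of all genes were called. With quantile normalization and with a pseudocount of 1, *Ptx3* alone of the members was called. The share of all genes called also moved. For cKO against WT with FAEE-SAP it was 1.27%, and 40.2% as deposited, 5.16% with replicate number as a block, 2.65% with all 8 libraries, 2.01% with an RPKM minimum of 2, 0.709% with quantile normalization, 0.518% without a trend, and 0% with no filter or without either WT FAEE-SAP library. For the WT response it was 6.93%, and 66.7% as deposited, 4.06% with the block, and 1.39% with no filter, with 33 genes higher and 64 lower without WT FAEE-SAP replicate 2. For the cKO response it was 0.0531%, and 0.552% with the block, 0.159% as deposited, and 0.135% with all 8 libraries. For the interaction it was 0.0719%, and 7.11% as deposited. The cause of these changes was not tested. With saline the count was 0 in all 16 alternatives. Where 1 library of a group was left out, the remaining one was assumed to vary like the other group.

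The 2 replicates of a group share only a number with those of another, and their deviations correlated at 0.313 with FAEE-SAP, -0.395 with saline, -0.175 in WT, and 0.450 in cKO. With replicate number as a block, 5 members were called in cKO against WT with FAEE-SAP (1 higher and 4 lower), 5 in the WT response, 2 in the cKO response, and 0 for saline and the interaction. With crossed numbers, 4, 7, 0, 0, and 2 were called in cKO against WT with FAEE-SAP, the WT response, the cKO response, saline, and the interaction, where 1.02%, 7.55%, 0.0318%, 0%, and 0.611% of all genes were called.

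Of the fits of single members, 603 kept their direction and side of the threshold, 34 gained a call, 14 lost it, and 12 changed sign, none of the last a call. As deposited these were *Lcn2* with saline (-0.10), *Itih4* in WT (0.45), and *Lrg1* for the interaction (-0.46, and -0.16 with quantile normalization). With 1 library left out, the saline difference ranged from -0.075 to 0.37 for *Lcn2*, -0.11 to 1.49 for *Hp*, -0.33 to 0.035 for *Cp*, and -0.235 to 0.059 for *Steap4*. The cKO response of *Hp* ranged from -0.54 to 1.85, and the interaction of *Lrg1* from -0.12 to 0.55. Depth limits *Orm1*, *Orm2*, and *Ptx3* in the libraries where they had at most 5 reads.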
